A study of Homo sapiens with 9 samples.

Results

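The members described here are 9 precursor genes of the let-7 microRNA family (MIRLET7A1, MIRLET7A3, MIRLET7B, MIRLET7C, MIRLET7D, MIRLET7E, MIRLET7F1, MIRLET7G and MIRLET7I) and MIRLET7BHG, the long noncoding transcript that hosts let-7a-3 and let-7b. They were chosen by gene name, and they make up 10 of the 60829 rows of the expression table. RNA was sequenced from H1, an established human embryonic stem cell line grown in mTeSR medium on vitronectin. It was sequenced as total RNA depleted of ribosomal RNA with a stranded library kit. The treatment label calls the cells differentiated, while the growth protocol names a stem cell medium. The control group was 1 clone labelled wild type (4 libraries), and the knockout group was 1 clone lacking HERVHlin on chromosome X (5 libraries), HERVHlin being the name the submitters give to an element of HERVH, a human endogenous retrovirus family active in such cells. The libraries of a group are successive passages of its clone, so p-values measure the spread between passages, and the knockout cannot be told apart from other differences between the 2 clones. The series title ties the element to the LIN28A and let-7 pathway, which makes the let-7 genes one of the questions of the comparison.

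Let-7 microRNAs are cut from hairpins within longer primary transcripts, first by DROSHA and DGCR8 in the nucleus and then by DICER1 in the cytoplasm. The mature strand pairs through its seed, the bases near its 5′ end, with messenger RNAs such as HMGA2 and LIN28B and lowers their output. In embryonic stem cells LIN28A and LIN28B bind let-7 precursors and block their maturation, so that primary transcripts can be present where mature let-7 is scarce. A total RNA library reads pieces of primary transcripts and hairpins. Mature let-7 was not measured here.

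The mature 5p products of the 9 precursors are shown because they define the family and show how alike the rows are (RefSeq, GRCh38.p14, 5′ to 3′, with the seed, bases 2 to 8, in capitals). Let-7a is made by both let-7a-1 and let-7a-3.
let-7a: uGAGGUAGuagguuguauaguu
let-7b: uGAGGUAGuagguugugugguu
let-7c: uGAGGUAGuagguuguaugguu
let-7d: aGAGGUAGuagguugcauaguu
let-7e: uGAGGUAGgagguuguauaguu
let-7f: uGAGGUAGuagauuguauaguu
let-7g: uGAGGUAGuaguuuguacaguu
let-7i: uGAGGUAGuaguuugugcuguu
All 9 precursors have the seed GAGGUAG in 8 distinct mature sequences. Let-7g and let-7i were identical at 20 of 22 positions and differed by A17G and A19U, counted from the 5′ end with the let-7g base first. Let-7g differed from let-7a by U12G and C18U.

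Of the 9 hairpins, let-7g and let-7i are shown because only these members had values above 0 among the precursors, and let-7a-3 and let-7b because their bases also lie within a second, longer row. In let-7g and let-7i, capitals mark GGAG between the arms, the letters that the LIN28 zinc knuckles are known to bind.
let-7g hairpin: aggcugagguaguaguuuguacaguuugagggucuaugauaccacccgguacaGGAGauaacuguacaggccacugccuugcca
let-7i hairpin: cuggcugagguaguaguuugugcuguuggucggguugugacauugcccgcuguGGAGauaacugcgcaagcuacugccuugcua
let-7a-3 hairpin: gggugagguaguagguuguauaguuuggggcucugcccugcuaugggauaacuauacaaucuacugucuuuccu
let-7b hairpin: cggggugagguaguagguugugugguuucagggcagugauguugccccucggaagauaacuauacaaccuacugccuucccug
On the sense strand, GGAG stands between the arms in 7 of the 9 members (not in let-7a-3 or let-7b) and in 60 of 739 hairpins of the RefSeq table (8.12%). NGAU, the letters known for the LIN28 cold shock domain, stands there in 8 of 9 (not in let-7c) and in 138 of 739 (18.7%). The searches may overlap, and NGAU ahead of GGAG without overlap was found in 3 members (let-7d, let-7f-1 and let-7g) and in 4 of 739 hairpins (0.541%). In let-7i, let-7a-1 and let-7e the only NGAU between the arms is AGAU, which shares letters with GGAG and is no separate site. These are matches of letters within the hairpins, not measured binding sites.

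The hairpins of let-7a-3 (chr22:46112749-46112822, plus strand) and let-7b (chr22:46113686-46113768, plus strand) lie inside an exon of MIRLET7BHG on the same strand (GENCODE 29, GRCh38). All 44 windows of 31 letters in let-7a-3 and all 53 in let-7b also stood in MIRLET7BHG, so no stretch of that length is particular to either hairpin row. A read from these bases can therefore be given to the host row, and the labels do not say how the authors' counting shared such reads. By GENCODE 29, the other 7 member hairpins shared no such window with another annotated transcript on their strand. Let-7e shares bases with SPACA6P-AS, an antisense transcript on the opposite strand. The identifiers of the member rows carry the same version as in GENCODE 29, while those of WDR82, SPACA6, MIR99AHG, LINC01465 and MIRLET7A1HG carry a later one, so the extent of these neighbours may differ in the authors' annotation.

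The whole numbers behind the deposited normalized counts totalled 19838682 to 31192630 per library. The 3 rows that the authors marked as knocked out summed to 3349 to 8405 normalized counts in control and 1283 to 2040 in knockout libraries, and 1 of these rows overlapped between the groups on its own. The treatment label calls the cells differentiated. The 11 pluripotent markers summed to 42108 to 86189 in control and 35862 to 53304 in knockout libraries. The sums for neural markers were 963 to 2660 and 1022 to 1492, and those for fibroblast-like markers 3230 to 5816 and 2881 to 4511. Mesoderm markers summed to 44.3 to 76.5 and 36.1 to 59.4, and endoderm markers to 34.0 to 158 and 31.6 to 60.4. Those of trophectoderm and amnion summed to 107 to 230 and 111 to 209. Every marker of every list was above 0 in some library, so presence alone separates no list. The joint microRNA share adds rows of gene type miRNA and rows with MI identifiers, another microRNA naming style. It ran from 12.3% of the whole-number total in control 3 to 52.9% in knockout 1. Protein-coding rows held from 26.3% in knockout 1 to 50.8% in control 3. Control 3 and knockout 1 were the extremes on the joint share. Rows of gene type miRNA alone were lowest in control 3 (7.03%) and highest in control 2 (23.8%), with 21.5% in knockout 1. On the protein-coding share control 2 (27.5%) lay near knockout 1 and knockout 5 (47.5%) near control 3.

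Let-7g and let-7i were the precursors with signal, and 7 of the 9 precursor rows (let-7a-1, let-7a-3, let-7b, let-7c, let-7d, let-7e and let-7f-1) were listed at 0 in all 9 libraries. Among all 1879 microRNA rows of the table, 976 (51.9%) were also at 0 in every library and 143 were above 0 in all 9. Let-7g, with a mean of 199 normalized counts over all libraries, ranked 133 among the microRNA rows, and let-7i, with a mean of 129, ranked 200. MIR302A, a precursor of the stem cell cluster miR-302/367, ranked 7 with a mean of 8334.

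**Figure D1:**
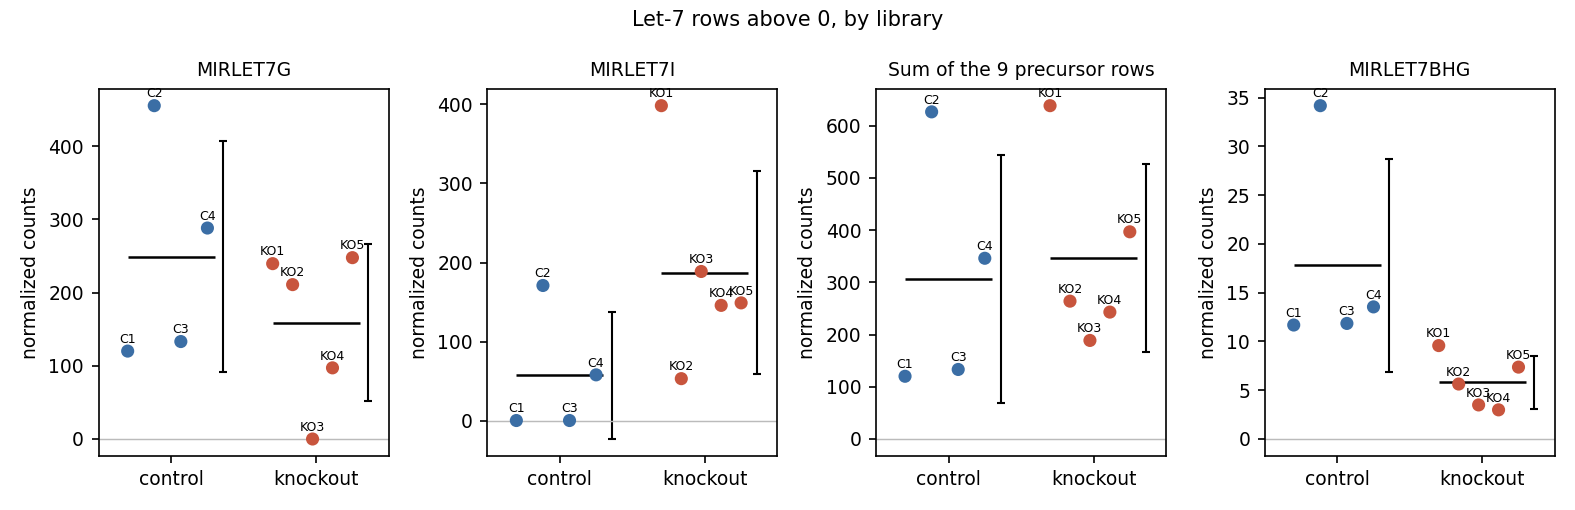
Normalized counts of MIRLET7G, MIRLET7I, the sum of the 9 precursor rows and MIRLET7BHG in each library (C, control; KO, knockout), on separate linear axes. Horizontal lines are group means and the bars beside them 1 SD (n = 4 control and n = 5 knockout). The groups overlap in the first 3 panels and do not overlap for MIRLET7BHG, where control 2 is highest at 34.2.

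A normalized count in so short a row is not a read. The 10th percentile of whole numbers above 0 was 1 in rows from 1000 to under 2000 nucleotides long, 3 from 300 to under 500 and 17 from 150 to under 200. It was 43 from 90 to under 120, 45 from 80 to under 90 and 41 from 60 to under 80. Over most of this range the values thus behave like an abundance per length. In rows of 84 nucleotides, the length of let-7g and let-7i, values fell on multiples of 1 step per library, which is taken here as 1 sequenced fragment. The step ran from 39.9 normalized counts in knockout 1 to 66.6 in control 3, and from 86.7% to 100% of the compared values up to 12 steps in 85 other rows of that length were such multiples. Of these 85 rows, 46 were at 0 in all 9 libraries, among them SNORD68, SNORD45A and MIR17, small RNAs widely expressed in human cells (named after their values were seen). A precursor listed at 0 is therefore given only as listed at 0, with no limit on its abundance.

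**Figure D2:**
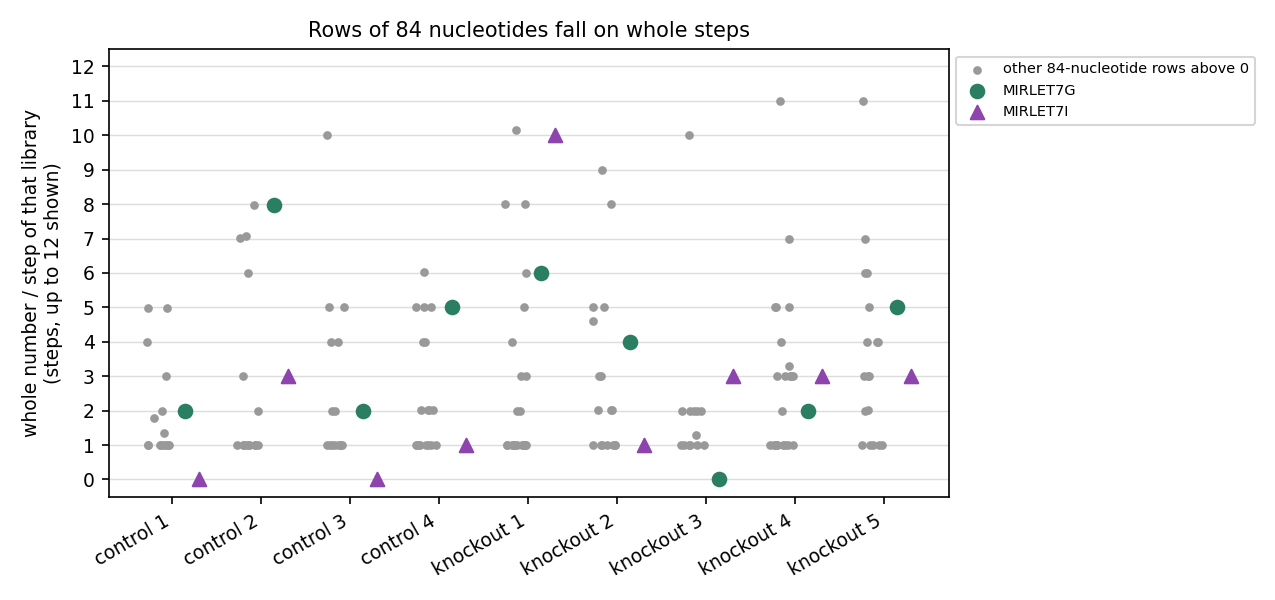
Whole number divided by the step of its library, for rows of 84 nucleotides above 0 (grey) and for MIRLET7G and MIRLET7I, with 1 column of points per library and values up to 12 steps shown. Most points lie on whole steps, and MIRLET7G and MIRLET7I rest on 0 to 10 fragments in each library.

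MIRLET7G lies at chr3:52268278-52268361 on the minus strand, within WDR82 on the same strand and outside its exons. WDR82 encodes a subunit of a histone H3 lysine methyltransferase complex. MIRLET7G had 120, 455, 133 and 288 normalized counts in control 1 to 4, and 239, 211, 0, 97.2 and 248 in knockout 1 to 5. Control 2 was the highest library, knockout 3 was at 0, and the groups overlapped. These values correspond to 2, 8, 2 and 5 fragments in control and 6, 4, 0, 2 and 5 in knockout libraries, so each group rested on 17 fragments (exact Poisson 95% interval 9.90 to 27.2, counting error only).

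Group means of MIRLET7G were 249 ± 157 normalized counts (SD, n = 4) in control and 159 ± 107 (SD, n = 5) in knockout libraries. Knockout against control, the log2 fold change on the log2(value + 1) scale was -1.71 (SE 1.52, 95% interval -5.10 to 1.69), and limma's adjusted p was 0.80. This value rested on the library at 0: without knockout 3 it was -0.20 (SE 0.48). WDR82 measured 509 ± 209 normalized counts in control, with 820 in control 3, and 406 ± 66.2 in knockout libraries. Its log2 fold change of -0.26 did not pass (adjusted p = 0.80 by limma) and was -0.01 without control 3.

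MIRLET7I lies at chr12:62603686-62603769 on the plus strand, within the noncoding gene AC048341.1 (MIRLET7IHG) on the same strand and outside its exons. Only its first bases overlap an exon of LINC01465 on the opposite strand, which in GENCODE 29 reaches to 62603690. MIRLET7I had 0, 171, 0 and 57.8 normalized counts in control 1 to 4. In knockout 1 to 5 it had 399, 53.0, 189, 146 and 149. All 5 knockout libraries were above 0 and 2 of the 4 control libraries were at 0, but control 2 exceeded 3 of the knockout libraries, so the groups overlapped. In bulk RNA, fewer cells with a transcript and less of it per cell cannot be told apart. In fragments, the control libraries held 0, 3, 0 and 1, in all 4 (exact Poisson 95% interval 1.09 to 10.2). The knockout libraries held 10, 1, 3, 3 and 3, in all 20 (12.2 to 30.9), of which knockout 1 gave 10. Both intervals hold counting error only and pool the passages of a clone, so they do not measure the difference between the groups.

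Group means of MIRLET7I were 57.2 ± 80.6 (SD, n = 4) in control and 187 ± 128 normalized counts (SD, n = 5) in knockout libraries, a ratio of 3.27. The log2 fold change was 3.95 (SE 1.53, 95% interval 0.54 to 7.37) with a limma adjusted p of 0.49, and 1567 of the 27777 rows tested had a smaller p. With 2 control libraries at 0 this size depends on the pseudocount, and DESeq2 gave 1.71. The value rested on few libraries. Without control 2 the control mean was 19.3, the ratio 9.70 and the log2 fold change 5.32. It was 2.84 without control 1 or without control 3. The knockout mean without knockout 1 was 134. That library also had the largest joint microRNA share (rows of gene type miRNA and MI rows). Over the 9 libraries, on the log2(value + 1) scale, MIRLET7I had a Pearson correlation of 0.61 with that share, against 0.26 for MIRLET7G. With the percentage of microRNA rows above 0 the correlations were 0.56 and 0.44. With the protein-coding share they were -0.40 and -0.26. The libraries share their clone within a group, and the part of the library's composition in the difference was not tested. AC048341.1 itself measured 15.0 ± 3.60 in control and 19.2 ± 6.76 in knockout libraries (log2 fold change 0.31, adjusted p = 0.82 by limma), and LINC01465 25.6 ± 11.99 and 27.8 ± 2.47.

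The sum over the 9 precursor rows holds MIRLET7G and MIRLET7I alone, since the others were listed at 0. The control libraries had sums of 120, 626, 133 and 346 normalized counts, and the knockout libraries 638, 264, 189, 243 and 397. The means were 306 ± 237 and 346 ± 180, a ratio of 1.13, and the groups overlapped. The ratio was 1.73 without control 2. It was 0.75 when control 3 and knockout 1 were both left out. On the log2(value + 1) scale the sum had a Pearson correlation of 0.72 with the joint microRNA share over the 9 libraries. The correlation was 0.54 with the percentage of microRNA rows above 0 and -0.59 with the protein-coding share.

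MIRLET7BHG (chr22:46053869-46113928, plus strand) was the one member above 0 whose groups did not overlap, and its mean was lower in the knockout clone. It had 11.7, 34.2, 11.9 and 13.5 normalized counts in control 1 to 4, and 9.58, 5.64, 3.49, 2.99 and 7.37 in knockout 1 to 5. The lowest control value was 11.7 and the highest knockout value 9.58. Groups that do not overlap, lower in knockout, made up 2.6% of the 27777 rows tested, with 1.35% not overlapping in the higher direction and 3.95% in either. Control 2 stood far above the other control libraries, which lay between 11.7 and 13.5.

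The mean of MIRLET7BHG was 17.8 ± 10.9 (SD, n = 4) in control and 5.81 ± 2.74 normalized counts (SD, n = 5) in knockout libraries, a ratio of 3.06. The log2 fold change was -1.41 (SE 0.50, 95% interval -2.52 to -0.31) with a limma adjusted p of 0.41, and 1197 rows had a smaller p. Without control 2 the control mean was 12.4 and the log2 fold change -1.06. The authors' deposited table gives -1.58 (standard error 0.563) with p = 0.00516 and an adjusted p of 0.159. The whole numbers behind these values were low: 11, 22, 13 and 15 in control, and 10, 5, 3, 4 and 10 in knockout libraries. PRR34-AS1, a noncoding gene on the same strand, shares exon bases with the start of MIRLET7BHG, so reads of the 2 rows may not be separable. PRR34-AS1 had 1.06, 13.98, 0.912 and 4.52 normalized counts in control and 1.92, 0, 0, 1.49 and 0 in knockout libraries, and control 2 was again the highest.

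Of the 10 members, 3 passed the filter on low values (MIRLET7G, MIRLET7I and MIRLET7BHG) and 0 of these were called at an adjusted p under 0.05, by limma, by edgeR or by DESeq2. MIRLET7I and MIRLET7BHG passed that filter largely through the group where each was higher, so their p-values are given as description only. MIRLET7I was above 0 in 2 control and 5 knockout libraries. At an unadjusted limma p under 0.05, MIRLET7I was higher and MIRLET7BHG lower. MIRLET7I was no longer under that level in 7 of 18 alternatives, namely with the replicate block, by edgeR, by DESeq2, without control 1, without control 3, without knockout 1 and without both control 3 and knockout 1. MIRLET7BHG was no longer under it in 1 of 18, without control 2. Over all 27777 rows tested, limma called 150 (0.54%), 32 higher (0.115%) and 118 lower (0.425%), and 8.63% had an unadjusted p under 0.05. With the replicate number as a block the count over all rows was 43. Without control 3 and knockout 1, the log2 fold changes were -2.40 for MIRLET7G, 2.50 for MIRLET7I and -1.73 for MIRLET7BHG, and none passed. The 3 members that passed went both ways, and their middle value was that of MIRLET7BHG, -1.41. By edgeR and DESeq2 the middle value was that of MIRLET7G, -0.62 and -0.65, and the median of all rows by limma was 0.01. The 493 microRNA precursor rows tested (named MIR and a number) had a median of 0.50, with 315 positive and 178 negative, and limma called 0 higher and 2 lower (MIR764 and MIR2276, named after their values were seen).

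**Figure D3:**
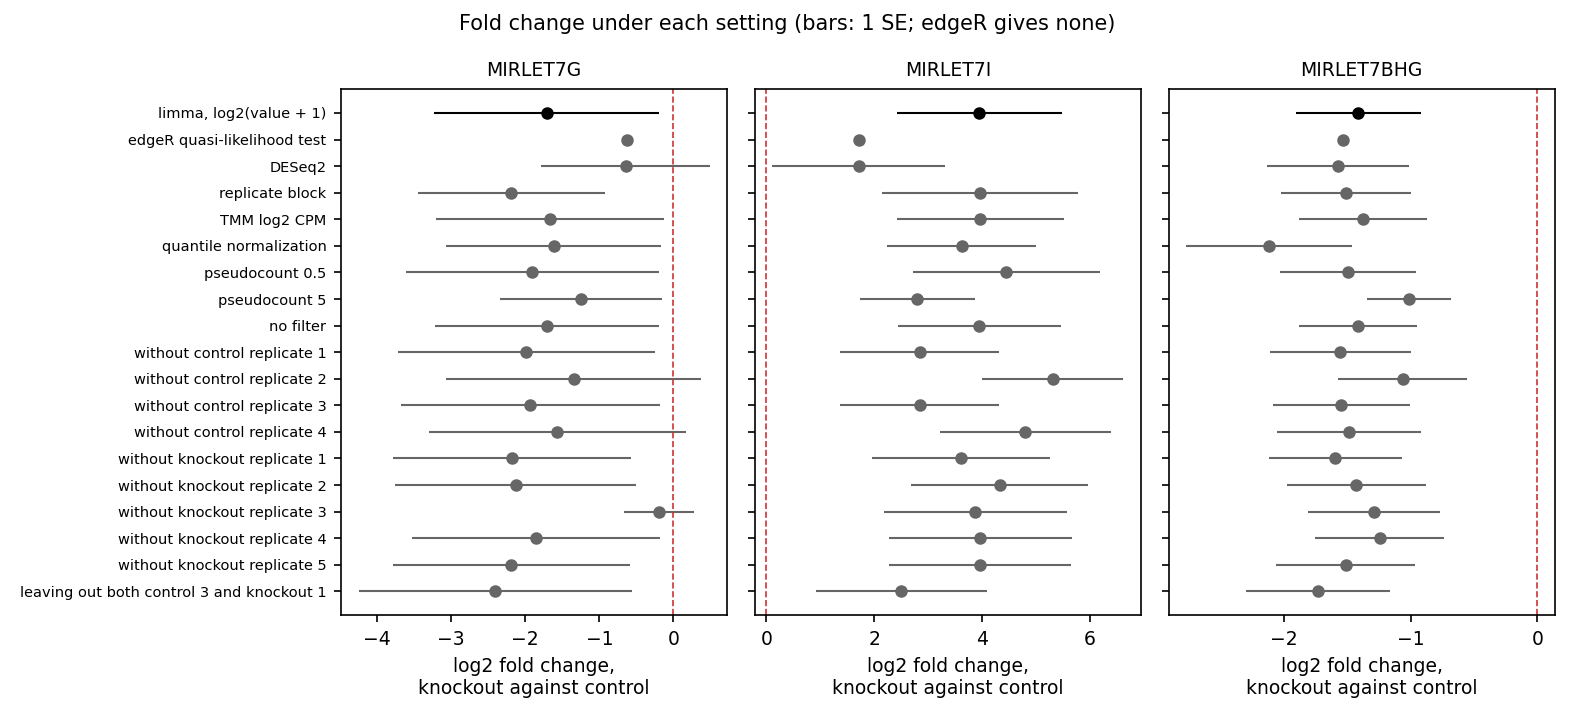
Log2 fold change, knockout against control, of the 3 members tested under limma on log2(value + 1) and each other setting, with horizontal bars of 1 SE (edgeR reports none). MIRLET7G and MIRLET7BHG lie below 0 and MIRLET7I above 0 in every setting drawn. MIRLET7G comes nearest to 0 without knockout 3, at -0.20.

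Outside the members, the other 3 precursors of the family were MIR98, MIRLET7A2 and MIRLET7F2. MIR98, which shares the seed and lies in HUWE1, was the one family precursor above 0 in all 9 libraries. Its values were 105, 113, 105 and 140 normalized counts in control and 87.2, 45.1, 115, 188 and 290 in knockout libraries. The means were 116 ± 16.6 and 145 ± 96.4, a log2 fold change of 0.06 (SE 0.46, adjusted p = 0.97 by limma, and -0.26 with the replicate block), and knockout libraries lay on both sides of the control range. MIRLET7A2 was above 0 in knockout 1 alone (81.4 normalized counts) and MIRLET7F2 in control 2 alone (109).

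Transcripts at the loci of several hairpins listed at 0 were present in every library. By GENCODE 29, let-7a-1, let-7f-1 and let-7d lie inside the noncoding gene AL158152.2, whose identifier was matched to no row, so no value is given for it. MIRLET7A1HG (AL158152.1 in that annotation), a noncoding gene that starts 25 nucleotides after let-7f-1 and ends ahead of let-7d, had 203, 214, 162 and 120 normalized counts in control and 227, 231, 203, 143 and 166 in knockout libraries. Its means were 175 ± 42.8 and 194 ± 38.6 (log2 fold change 0.16, adjusted p = 0.86 by limma), while let-7a-1, let-7f-1 and let-7d beside it were listed at 0. MIR99AHG, the noncoding gene with let-7c in an intron, measured 65.9 ± 19.8 and 71.2 ± 24.0 (log2 fold change 0.09, adjusted p = 0.94 by limma, and -0.03 without control 3). SPACA6, a sperm membrane protein gene around let-7e, measured 55.1 ± 7.42 and 58.4 ± 8.45. MIR99A, MIR99B and MIR125A, the cluster partners of let-7c and let-7e, were also listed at 0 in all libraries.

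**Figure D4:**
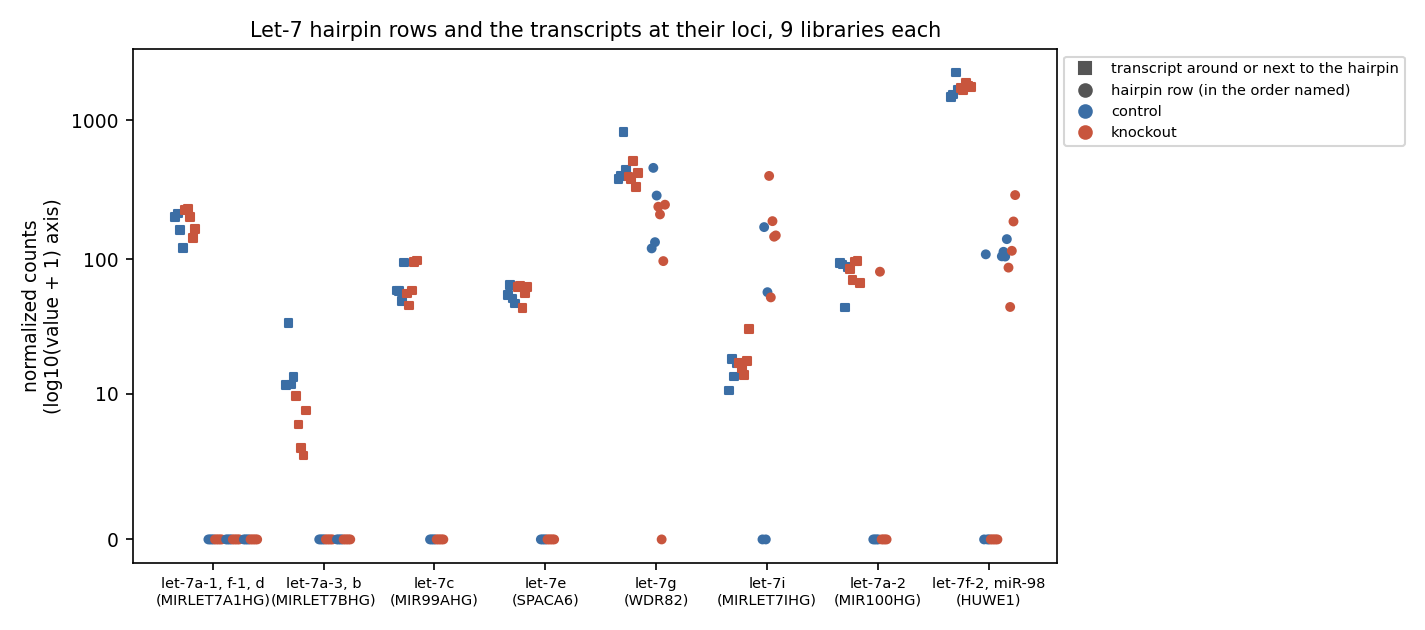
Normalized counts on a log10(value + 1) axis for let-7 hairpin rows (circles) and the transcript named in brackets around or next to each (squares), with 1 point per library (blue, control; red, knockout). Hairpins of 7 members lie at 0 in all 9 libraries, while the squares lie above 0 in all of them.

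Of the fixed list of let-7 hosts and cluster neighbours, 21 of 22 symbols outside the members were found and 10 were tested. Limma, edgeR and DESeq2 called 0 of them, and 0 had an unadjusted limma p under 0.05. Their median log2 fold change was 0.09 (9 positive and 1 negative, against 14163 and 13614 over all rows tested). All 30 genes of the fixed let-7 processing list were tested and 0 were called by any of these tools, with a median of -0.07. TRIM71, a ubiquitin ligase and let-7 target, was the only one of them with an unadjusted limma p under 0.05 (2213 ± 390 and 1600 ± 161 normalized counts, log2 fold change -0.46, adjusted p = 0.37), and it is named after its value was seen. LIN28A had 20953 normalized counts in control 3 and 8804 to 12827 in the other control libraries, and 8125 to 12272 in the knockout libraries. Knockout against control, LIN28A stood at -0.38 on the log2 scale (adjusted p = 0.75 by limma) and LIN28B at -0.18 (adjusted p = 0.85). Without control 3 they stood at -0.14 and 0.07.

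Of 40 let-7 targets listed, 38 were tested. Limma and edgeR called 0 of them and DESeq2 called 2 (PRTG and IL6R). Over all 27777 rows tested by limma, DESeq2 called 713. The median log2 fold change of the targets was -0.12 (13 positive and 25 negative, against 14163 and 13614 over all rows). At an unadjusted limma p under 0.05, 1 target was higher and 4 lower, against 994 and 1403 of all 27777 rows. These targets are named after their values were seen. PRTG, a neural cell surface protein, measured 56.2 ± 26.6 in control and 143 ± 45.5 normalized counts in knockout libraries (log2 fold change 1.39, adjusted p = 0.13 by limma). The lower values were those of TRIM71, IL6R (-0.93), INSR (-0.63) and THBS1 (-0.88). With all libraries, the groups of PRTG, IL6R and TRIM71 did not overlap, and 3.95% of all rows tested did not overlap either. HMGA2, a chromatin protein and classical let-7 target, had 971 ± 278 and 1083 ± 92.8 normalized counts, a log2 fold change of 0.19 (adjusted p = 0.81 by limma). With all libraries its groups overlapped. Control 3 was its highest library (1387), and without it the log2 fold change was 0.37 (adjusted p = 0.37 by limma).

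**Figure D5:**
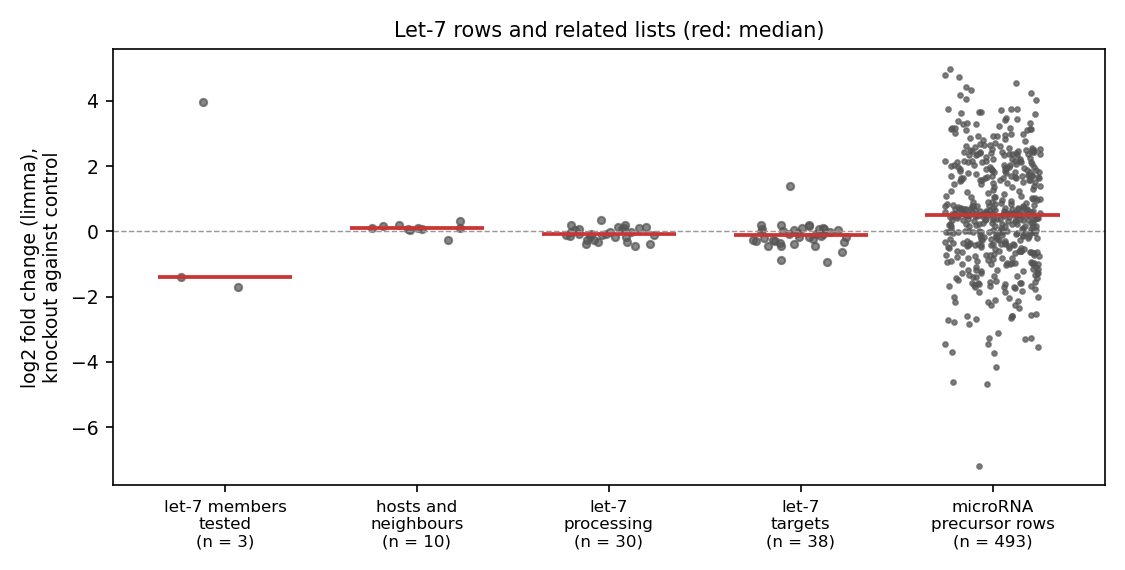
Log2 fold change by limma, knockout against control, for the 3 members tested and for the tested rows of the related lists, with 1 point per row and the median as a red line. The host, processing and target lists have medians of 0.09, -0.07 and -0.12, and the microRNA precursor rows spread more widely around 0.50.

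Among the 15994 symbol-bearing rows that averaged 50 or more normalized counts, the pattern of log2 values over the 9 libraries was most like that of MIRLET7BHG in ZNF701 (Pearson r = 0.943), ST6GAL2 (0.940), PLEC (0.934), PTCH1 (0.925) and LINC01896 (0.925). The rows most like MIRLET7G were SNORD38C (r = 0.977), MIR30E (0.967), a Y_RNA row (0.962), GPR143P (0.956) and another Y_RNA row (0.955). MIRLET7G was at 0 in knockout 3 alone, so on the log2 scale its correlations may rest largely on that library, which was not tested. These are descriptions over libraries that share clone and composition, and the best of 15994 rows are high by selection.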

How the data were processed

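Total RNA from 9 passages of 2 H1 clones (4 control, 5 knockout, grouped by title) was depleted of ribosomal RNA and sequenced with a stranded kit, per the labels' protocols. The authors used kallisto, fastp, DESeq2 and the hg38 build, per the submitters' processing notes, which state no version. The annotation release, the strand setting and the summing of transcripts to genes were not given in the sources used. The deposited signal columns hold counts normalized by 1 factor per library, and within 1e-06, 100% of the values were whole multiples of that factor. These whole numbers look scaled by transcript length, so they are called whole-number counts and not reads. The authors' log2 fold change, standard error, test score and p-value are further columns of that deposited table.

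Rows were kept by edgeR's filterByExpr (minimum count 10), which left 27777. They were tested with limma 3.58.1 (R 4.3.3, mean-variance trend) on log2(value + 1) with group as the only term, adjusted by the Benjamini-Hochberg method at 0.05, after the script was tested on simulated data. On this scale the fold change of a row with values at 0 depends on the pseudocount. The plan named a count test for plain counts. As the values are normalized, edgeR 4.0.16 (quasi-likelihood, 151 rows called) and DESeq2 1.42.0 on the whole-number counts were alternatives, with a replicate block, TMM and quantile scaling, pseudocounts of 0.5 and 5, no filter and libraries left out. The labels' batch field gives control and knockout the same replicate numbers, and the pairing rests on that label. Correlations of the deviations of same-numbered libraries were 0.07, 0.02, 0.25 and 0.33, only 2 of them over 0.1, and differently numbered pairs reached 0.21, so the data do not settle the pairing.

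The members and lists were chosen with earlier results of these data known. All members, LIN28A, LIN28B, HMGA2, MIR99AHG, the 3 other family precursors, any gene of the host, processing and target lists called by limma (there were 0) and the 5 rows most like MIRLET7BHG and MIRLET7G were named by rule. Sequences are from RefSeq (GRCh38.p14), for all 9 precursors. The 2 most alike libraries had equal values in 6.01% of rows, so no library was counted as a repeat.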

Additional observations from a re-analysis of the deposited data

Results flagged for a closer look

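In 7 of 30 groups of 4 or 5 libraries examined, 1 library stood far from the others (Dixon's gap test at 95%, where chance gives about 1 group in 20). In 2 of the 7, MIRLET7A2 and MIRLET7F2, a single library was above 0, so the flag follows from that alone, which leaves 5 of the other 28. Control 2 was high for MIRLET7BHG (34.2 normalized counts), MIRLET7F2 (109) and LINC01465 (43.5). Control 3 was high for WDR82 (820) and HMGA2 (1387) and low for MIR100HG (44.7). Knockout 1 was the only library with MIRLET7A2 above 0 (81.4).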

How the results depend on the processing

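MIRLET7G, MIRLET7I and MIRLET7BHG kept their direction in all 18 alternatives each and were called in 0 of them, with log2 fold changes of -2.40 to -0.20, 1.71 to 5.32 and -2.12 to -1.01 and adjusted p of 0.55 to 0.997, 0.26 to 0.97 and 0.16 to 0.78. With the replicate block they stood at -2.19, 3.96 and -1.51, which changed no call at the adjusted threshold, though MIRLET7I then had an unadjusted limma p above 0.05. Replicate 5 exists only in the knockout group, so the block takes up knockout 5 and gives the fold changes found without it. Leaving out the filter gives those of the main setting, so the alternatives are not independent. The count of all rows called was 781 with DESeq2 (over 38063 rows with an adjusted p, or 713 of the 27777 tested by limma), 43 with the replicate block, 91 without both control 3 and knockout 1, and 79 to 186 with 1 library left out, against 150. With 1 library left out, the median over the members tested ran from -1.60 to -0.20 (without knockout 3), and the ratio of summed precursors from 0.89 to 1.73 (without control 2). The cause of these shifts was not tested. Adding precursor rows of another naming style was not run, since no such row carries a let-7 name. MIRLET7G and MIRLET7I rest on at most 10 fragments in a library.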
